A study of Mus musculus with 6 samples.

Results

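The genes described here encode the proteasome, the main protease complex of the cell, and were measured in mouse hematopoietic stem cells, from which the blood lineages are renewed. They are the 50 genes, of 24110 in the table, whose symbol is Psma, Psmb, Psmc, Psmd, Psme, Psmf or Psmg followed by a number. No symbol of a pseudogene matched, and no matching gene was at 0 in all libraries. RNA was sequenced from cells sorted as Lineage-, Sca-1+, CD48- and CD150+. Both groups were C57BL/6 mice of the same litters, matched for sex, that carried a floxed Prmt5 gene and were sampled 7 days after induction. In Prmt5 KO mice the gene had been deleted on both chromosomes, and in Prmt5 fl/fl mice it had not. The sources used here do not give the inducing agent, the driver of the recombinase or the age of the mice. Each group had 3 libraries, and every library held the cells of 2 pooled mice, so the p-values measure the spread between pools of animals. Prmt5 encodes an arginine methyltransferase that modifies spliceosome proteins, and the study's title names its role in splicing.

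The proteasome degrades proteins that carry ubiquitin chains. Its 20S core is a barrel of stacked rings, with outer rings of alpha subunits that gate entry and inner rings of beta subunits, of which Psmb5, Psmb6 and Psmb7 cut peptide bonds. In blood cells and under interferon these catalytic subunits can be replaced by the immunosubunits Psmb8, Psmb9 and Psmb10, which changes the peptides made for antigen presentation. The 19S particle recognises ubiquitin, unfolds the substrate with a ring of ATPases and feeds it into the core, and other caps, an inhibitor and dedicated chaperones complete the set. The 50 genes comprised 7 alpha and 7 beta subunits of the constitutive core, the 3 immunosubunits, the germ-line alpha subunit Psma8, the thymic beta subunit Psmb11, 6 ATPases and 11 other 19S subunits, 3 chaperones of 19S assembly, 4 activator genes, the inhibitor Psmf1 and 4 chaperones of core assembly. The remaining 2 symbols were Psmc3ip, a recombination factor that binds Psmc3 and is no subunit, and Psme2b, a copy of Psme2.

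Prmt5 itself had 1056, 1049 and 897 scaled counts in the 3 KO libraries, against 6076, 6024 and 6010 in the fl/fl libraries, where a scaled count is a read count brought to a common library total. Its log2 fold change was -2.60 (SE 0.13, limma adjusted p = 0.000618, and 0.0618 with the replicate block), in the direction of the labels. The libraries held 37834096 to 41812565 reads in genes in KO and 42213314 to 44704636 in fl/fl, so the totals did not overlap. All 9 stem cell markers were present in every library. For the granulocyte and macrophage markers (6 of 6 present), the summed scaled counts were 57136, 41707 and 337531 in KO libraries 1 to 3 and 149251, 54256 and 43673 in fl/fl libraries 1 to 3. Megakaryocyte markers (4 of 4 present) summed to 20017 to 40224 in KO and 46432 to 68835 in fl/fl, and red cell precursor markers (3 of 4 present, Hba-a1 at 0 throughout) to 258 to 477 in KO and 1155 to 4042 in fl/fl. B cell markers summed to at most 95 in any library. Fl/fl replicate 3 stood apart: relative to the mean of the other fl/fl libraries, its short genes were high and its long genes were low, with a median log2 difference of 0.49 for genes up to 1000 bases and -0.73 for genes over 5000 bases. Since most proteasome transcripts are short, results are given below with and without that library.

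Of the 50 genes, 49 had a mean of 10 scaled counts or more and were tested. Among them limma called 0 at an adjusted p under 0.05, where it called 0.730% of the 14113 genes tested (39 higher and 64 lower in KO). In these bulk samples, fewer cells of a type and less RNA per cell cannot be told apart. Without adjustment, 0 proteasome genes had p under 0.05 with a higher level in KO (4.58% of all genes) and 2, Psmb9 and Psmf1, with a lower level (13.6% of all genes). The 3 KO values all lay above the 3 fl/fl values for 1 gene, Psme3 (8.30% of all genes), and all below for 3 genes, Psmb9, Psmf1 and Psmg2 (19.9% of all genes). These shares of the 49 genes were below their backgrounds. Fold changes were above 0 for 34 genes and below 0 for 15, with a median log2 fold change of 0.076, beside -0.048 over all genes tested. That median was 0.13 without fl/fl replicate 3, and leaving out another library gave 0.0045 (KO replicate 1), 0.061 (KO replicate 2), 0.12 (KO replicate 3), 0.050 (fl/fl replicate 1) and 0.0075 (fl/fl replicate 2).

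**Figure D1:**
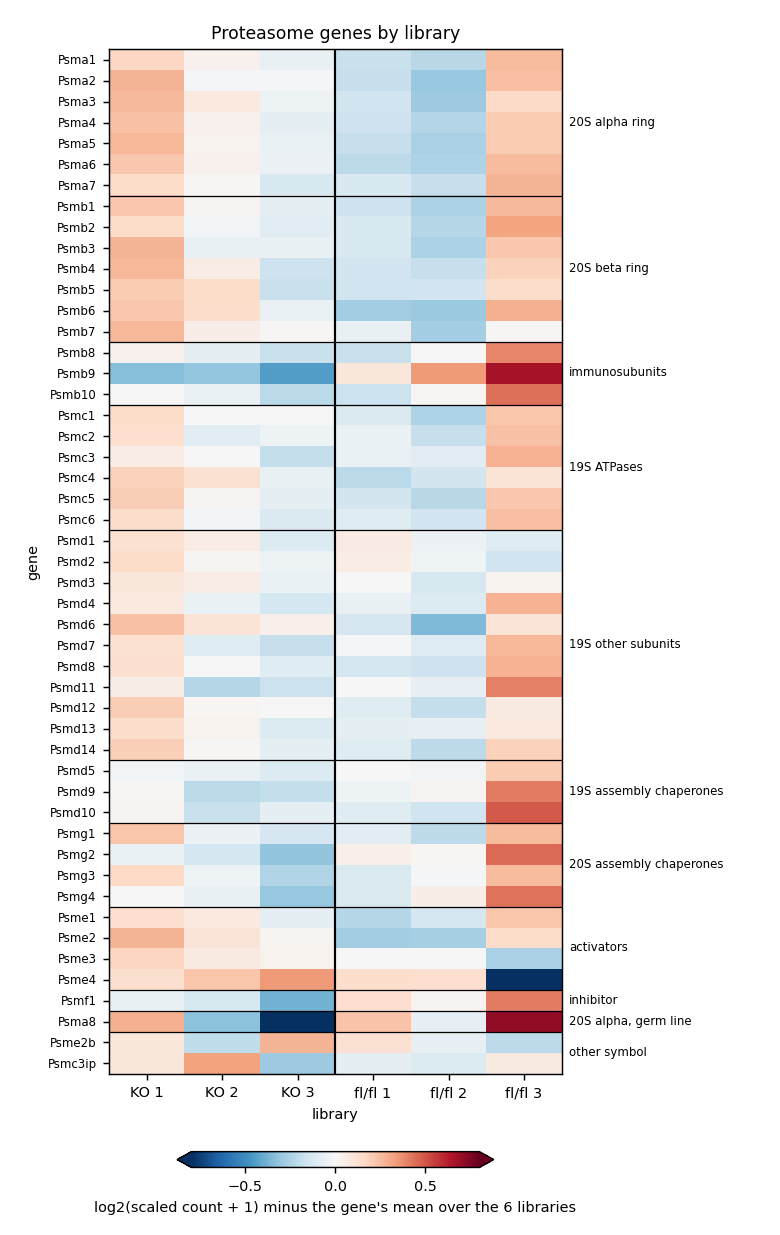
Each row is 1 of the 49 proteasome genes tested, grouped by role, and each column 1 library (Prmt5 KO left, Prmt5 fl/fl right); colour gives log2(scaled count + 1) minus the gene's mean over the 6 libraries, and 2 values beyond the ends of the scale are drawn in the end colours. Fl/fl replicate 3 is high in most rows, fl/fl replicates 1 and 2 are low in the rows of the 20S core, and Psmb9 is low in all 3 KO libraries.

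All 14 genes of the constitutive 20S core had log2 fold changes above 0, between 0.019 and 0.22 with a median of 0.12, and in none did the groups stand apart. The sign held for all 14 genes under median-of-ratios, quantile and TMM scaling, but it was above 0 for only 10 genes without KO replicate 1 and for 12 without fl/fl replicate 1 or without fl/fl replicate 2. Summed over the 7 alpha genes, the libraries held 110732, 97346 and 91306 scaled counts in KO, against 84861, 80553 and 111920 in fl/fl. Fl/fl replicate 3 had the highest sum of all 6 libraries, and fl/fl replicates 1 and 2 had the lowest.

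Psma3, an alpha-ring subunit, had the largest fold change of its ring, with 16106, 14154 and 13040 scaled counts in KO and 12029, 10977 and 14942 in fl/fl. All 3 KO libraries were above fl/fl replicates 1 and 2, and fl/fl replicate 3 lay inside the KO range (log2 fold change 0.20, SE 0.15, adjusted p = 0.523). Psma7, whose protein also belongs to the alpha ring, had the smallest, with 20313, 18469 and 16798 in KO and 16893, 16148 and 22189 in fl/fl. Its groups overlapped and its log2 fold change was 0.019 (SE 0.15, adjusted p = 0.957). The germ-line subunit Psma8, which replaces Psma7 in testis, was scarcer and more variable, with 1072, 702 and 495 scaled counts in KO and 1033, 841 and 1441 in fl/fl. KO replicate 3 was the lowest library and fl/fl replicate 3 the highest (log2 fold change -0.58, SE 0.32, adjusted p = 0.384). Per kilobase of gene length, Psma8 averaged 447 scaled counts in KO and 653 in fl/fl, against 11645 in KO and 11571 in fl/fl for Psma7.

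In the beta ring, the catalytic subunit Psmb7, which carries the trypsin-like activity, had the largest fold change, with 6599, 5693 and 5515 scaled counts in KO and 5255, 4539 and 5524 in fl/fl. KO replicates 1 and 2 were above every fl/fl library and KO replicate 3 was just below fl/fl replicate 3 (log2 fold change 0.22, SE 0.13, adjusted p = 0.436). Psmb6, the caspase-like catalytic subunit, had 14185, 13475 and 11780 in KO and 10085, 9950 and 14876 in fl/fl. Here fl/fl replicate 3 was the highest of the 6 libraries and fl/fl replicates 1 and 2 were the lowest (log2 fold change 0.20, SE 0.18, adjusted p = 0.590). Psmb5, the chymotrypsin-like subunit and main target of bortezomib, had 7627, 7345 and 5872 in KO and 5926, 5962 and 7315 in fl/fl. The groups overlapped, with KO replicate 3 the lowest of the 6 libraries (log2 fold change 0.12, SE 0.15, adjusted p = 0.713). Psmb2, a non-catalytic subunit, had 12718, 11308 and 10761 in KO and 10527, 9773 and 14278 in fl/fl. It had the smallest fold change of the ring (0.025 on the log2 scale, SE 0.17, adjusted p = 0.951), and fl/fl replicate 3 was again the highest library. The 3 other beta genes, Psmb1, Psmb3 and Psmb4, all had a log2 fold change of 0.11. Thymic Psmb11 had 2.36, 2.14 and 0 scaled counts in KO and 0 in each fl/fl library, with at most 2 reads in any library, and no fold is given because a count of 0 allows up to 3 reads.

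The immunosubunits were abundant in both genotypes. Psmb8, which takes the place of Psmb5, had 17820, 16536 and 15362 scaled counts in KO and 15370, 17445 and 22795 in fl/fl. The groups overlapped (log2 fold change -0.14, SE 0.16, adjusted p = 0.663). Psmb10, which takes the place of Psmb7, had 7758, 7488 and 6691 in KO and 6909, 7815 and 10548 in fl/fl. The KO libraries overlapped fl/fl replicates 1 and 2, and fl/fl replicate 3 was above all of them (log2 fold change -0.18, SE 0.17, adjusted p = 0.603).

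Psmb9, which takes the place of Psmb6, had the log2 fold change farthest from 0 of all 49 genes. It had 5561, 5666 and 5170 scaled counts in KO, against 7476, 8902 and 11176 in fl/fl. The KO libraries lay close together and below every fl/fl library, and their mean was 59.5% of the fl/fl mean. The log2 fold change was -0.73 (SE 0.16, 95% interval -1.11 to -0.35), and the limma adjusted p of 0.0846 missed the threshold of 0.05. Blocking on the replicate number gave an adjusted p of 0.226. Without fl/fl replicate 3 the log2 fold change was -0.58 with an adjusted p of 0.0417, the 1 proteasome gene that limma then called lower (1.82% of all genes were). DESeq2 on the recovered reads gave -0.66 with an adjusted p of 0.0144 (4.46% of all genes called lower). Leaving out 1 of the other libraries gave adjusted p-values of 0.102 to 0.291, and edgeR gave 0.109.

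Psmb9 lies at chr17:34181987-34187764 (GRCm38, GENCODE M21, minus strand) in the major histocompatibility complex, back to back with the peptide transporter gene Tap1, with Psmb8 and the transporter gene Tap2 on the far side. In GENCODE M21 the exons of Psmb9 and Tap1 share 212 bases on opposite strands, and the library kit does not mark the strand. The merged GENCODE exons of Psmb9 cover 3660 bases, but the deposited gene length is 806 bases. The annotation used for counting is not given, so whether the shared bases were counted is not known. If they were, reads from them cannot be assigned to 1 of the genes with certainty. Tap1 had 11977, 10172 and 10950 scaled counts in KO and 13536, 15816 and 13258 in fl/fl. Here too every KO library was below every fl/fl library, as for 19.9% of all genes (log2 fold change -0.36, SE 0.12, adjusted p = 0.191). The part that the shared bases play in the values of Psmb9 was not tested.

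To show the windows at which these exchangeable partners begin, the RefSeq promoters of Psmb9 (chr17:34187281-34187580, minus strand) and of Psmb6 (chr11:70525107-70525406, plus strand) are printed from 250 bases before to 50 bases after the RefSeq start on GRCm38.p6, which for Psmb9 lies inside the GENCODE gene. Capitals mark the matches to 4 searched motifs, on either strand.
Psmb9: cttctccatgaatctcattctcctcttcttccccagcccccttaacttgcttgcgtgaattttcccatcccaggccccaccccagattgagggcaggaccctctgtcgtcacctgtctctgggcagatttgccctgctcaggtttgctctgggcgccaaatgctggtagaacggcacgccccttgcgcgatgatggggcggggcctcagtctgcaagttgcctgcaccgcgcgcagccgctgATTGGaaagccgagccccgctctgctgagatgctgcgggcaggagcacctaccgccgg
Psmb6: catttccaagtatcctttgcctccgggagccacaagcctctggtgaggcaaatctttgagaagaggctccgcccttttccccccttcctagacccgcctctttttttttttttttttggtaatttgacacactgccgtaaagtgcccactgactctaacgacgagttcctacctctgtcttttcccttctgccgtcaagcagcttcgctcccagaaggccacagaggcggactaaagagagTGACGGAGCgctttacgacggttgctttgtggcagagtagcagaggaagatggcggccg
The motifs were the core of the antioxidant response element TGACNNNGC, which NRF1 and NRF2 bind, the core of the interferon-stimulated response element GAAANNGAA, the gamma-activated site TTCNNNGAA and the CCAAT box, and each of these windows held 1 match. The Psmb9 window held a CCAAT box on its reverse strand (ATTGG), and the Psmb6 window an antioxidant response element core (TGACGGAGC) that begins 9 bases before the start. Of the 50 genes, 42 had a promoter in the table. The antioxidant core occurred in 6 of them (14.3%), Psmb5, Psmb6, Psmc6, Psmd12, Psmd9 and Psme4, beside 12.4% of 32851 promoters. The interferon core occurred in 7 (16.7%, beside 8.56%), Psmb3, Psmb4, Psmc2, Psmd4, Psmd9, Psme1 and Psmg4. The gamma-activated site occurred in 3, Psmb8 among them (7.14%, beside 8.3%), and the CCAAT box in 15 (35.7%, beside 37.4%). The units differ: a proteasome gene counted if any of its promoters matched (45 promoters for 42 genes), whereas the shares of 32851 count single promoters. A match is a string of letters and no evidence of binding.

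Because an exchange subunit and its constitutive partner compete for the same place in the ring, their levels were also compared as ratios per kilobase of gene length within each library. Psmb9 over Psmb6 was 0.504, 0.540 and 0.564 in KO and 0.953, 1.15 and 0.966 in fl/fl, with means of 0.536 ± 0.030 in KO and 1.02 ± 0.11 in fl/fl (SD, n = 3 each). The KO and fl/fl ratios stood apart, and fl/fl replicate 3 lay between the other fl/fl libraries. The log2 difference was -0.93 (two-sided exact permutation p = 0.1, below which 3 against 3 libraries cannot go, and 0.2 after adjustment over the 3 ratios). It was -0.92, -1.09 and -0.78 within replicates 1, 2 and 3, and -0.97 without fl/fl replicate 3.

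Psmb8 over Psmb5 was 1.66, 1.60 and 1.86 in KO and 1.85, 2.08 and 2.22 in fl/fl. These groups overlapped by 1 library, and the log2 difference was -0.26 (exact permutation p = 0.2, adjusted 0.2). Psmb10 over Psmb7 was 0.897, 1.00 and 0.926 in KO and 1.00, 1.31 and 1.46 in fl/fl. KO replicate 2 and fl/fl replicate 1 were nearly equal, and the log2 difference was -0.40 (exact permutation p = 0.2, adjusted 0.2). The sign was below 0 in every replicate number for all 3 ratios. Whether the ratio of Psmb9 differed between the genotypes by more than the other ratios did was not tested.

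**Figure D2:**
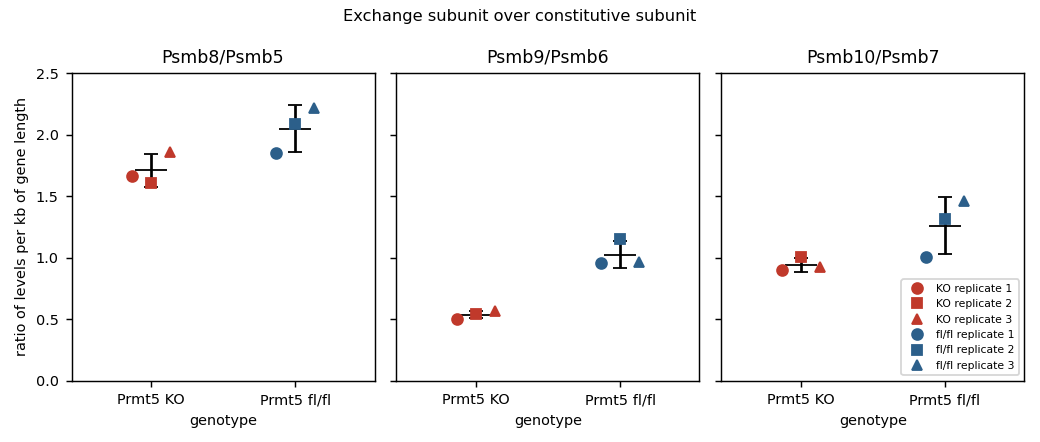
Ratio of each exchange subunit to its constitutive partner (scaled counts per kilobase of gene length, linear axis from 0), by genotype with Prmt5 KO left; symbols are single libraries by replicate number, horizontal lines are means and bars are 1 SD (n = 3 each). The Psmb9/Psmb6 ratios lie between 0.504 and 0.564 in KO and between 0.953 and 1.15 in fl/fl, whereas the other ratios overlap between the genotypes.

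The 6 ATPases of the 19S base, which unfold the substrate, had log2 fold changes of -0.093 to 0.17, and 0 were called. Psmc4 had the largest, with 10786, 10336 and 9097 scaled counts in KO and 8155, 8555 and 10246 in fl/fl. All 3 KO libraries were above fl/fl replicates 1 and 2, and fl/fl replicate 3 lay inside the KO range (0.17 on the log2 scale, SE 0.13, adjusted p = 0.540). Psmc3 had the lowest, with 14595, 13968 and 12268 in KO and 13489, 13226 and 17012 in fl/fl. KO replicate 3 was its lowest library and fl/fl replicate 3 its highest (-0.093, SE 0.14, adjusted p = 0.752). Psmc1, Psmc2, Psmc5 and Psmc6 lay between them.

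Of the 11 other 19S subunits, 8 had fold changes above 0. Psmd6, a lid subunit, had the largest, with 9769, 8957 and 8564 scaled counts in KO and 7585, 6501 and 8939 in fl/fl. Its KO libraries were above fl/fl replicates 1 and 2, and KO replicate 3 was below fl/fl replicate 3 (log2 fold change 0.26, SE 0.15, adjusted p = 0.399). Psmd11, a lid subunit linked in human embryonic stem cells to high proteasome activity, was at the other end, with 10489, 8660 and 8997 in KO and 10163, 9689 and 13424 in fl/fl. KO replicate 1 overlapped the fl/fl libraries (log2 fold change -0.23, SE 0.16, adjusted p = 0.478). The large scaffold subunits Psmd1 and Psmd2 varied little, with 13224 to 15525 scaled counts in KO and 13295 to 14892 in fl/fl for Psmd1. For Psmd2 the range was 21673 to 24623 in KO and 19922 to 23229 in fl/fl. In both genes fl/fl replicate 3 was the lowest fl/fl library, unlike in the core. The ubiquitin receptor Psmd4 had a log2 fold change of -0.075 and the deubiquitinase Psmd14 of 0.082.

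The 3 chaperones that assemble the 19S base all had fold changes below 0. Psmd9 had 2280, 1949 and 1986 scaled counts in KO and 2198, 2301 and 3025 in fl/fl. KO replicate 1 lay inside the fl/fl range (log2 fold change -0.26, SE 0.17, adjusted p = 0.442). Psmd5 had 7944, 7776 and 7459 in KO and 8069, 7925 and 9296 in fl/fl. Its values overlapped by 1 library in each group (log2 fold change -0.12, SE 0.12, adjusted p = 0.603). Psmd10, known as gankyrin, had a log2 fold change of -0.16 with an adjusted p of 0.700. In GENCODE M21, Psmd9 shares 1849 exon bases with a noncoding gene on the opposite strand. Its merged GENCODE exons cover 7248 bases, but its deposited gene length is 2591 bases, so the shared bases may not have been counted. Reads from them, if counted, cannot be assigned with certainty. In all, 15 of the 50 genes have GENCODE exons that overlap those of another gene, among them Psmb5, Psmb7, Psmb8, Psmc3, Psmc3ip, Psme1 and Psme2b.

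The activators open the core gate in place of the 19S particle. Psme1 and Psme2, whose products form the interferon-inducible cap and which are neighbours on chromosome 14, had log2 fold changes of 0.094 (SE 0.15, adjusted p = 0.760) and 0.27 (SE 0.15, adjusted p = 0.398). Psme1 was the most abundant proteasome gene per kilobase, with 18009 scaled counts in KO and 17000 in fl/fl, and its libraries held 18700, 17915 and 16169 scaled counts in KO and 14536, 15500 and 19792 in fl/fl. Psme2 had 11789, 10513 and 9924 in KO and 8044, 8132 and 10794 in fl/fl. In both genes every KO library was above fl/fl replicates 1 and 2, and fl/fl replicate 3 was inside or above the KO range. Psme3, which forms the nuclear activator cap, had 18230, 17007 and 16478 in KO and 16148, 16133 and 13536 in fl/fl. It was the only proteasome gene whose KO libraries were all above the fl/fl libraries, by a small margin over fl/fl replicates 1 and 2 (log2 fold change 0.18, SE 0.12, adjusted p = 0.465). Psme4, a single-chain activator encoded by a long transcript of 6442 bases, had 2552, 2730 and 2961 in KO and 2579, 2561 and 1190 in fl/fl. Its log2 fold change of 0.46 (SE 0.30, adjusted p = 0.451) was the highest of all 49 genes and was 0.094 without fl/fl replicate 3, whose value was 46.3% of the mean of the other fl/fl libraries.

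Psmf1, which encodes an inhibitor of the core, had 2661, 2545 and 2139 scaled counts in KO, against 3046, 2825 and 3682 in fl/fl. All KO libraries lay below all fl/fl libraries (log2 fold change -0.38, SE 0.16, adjusted p = 0.265), and the log2 fold change was -0.27 without fl/fl replicate 3. Psmg2, a chaperone that pairs with the product of Psmg1 to build the alpha ring, had 4163, 3912 and 3471 in KO and 4431, 4366 and 5894 in fl/fl. Its groups also stood apart (log2 fold change -0.34, SE 0.16, adjusted p = 0.315). Psmg1 did not follow it, with 5075, 4203 and 3961 in KO and 4078, 3761 and 5175 in fl/fl. The KO values lay inside the fl/fl range (log2 fold change 0.03, SE 0.17, adjusted p = 0.940). The other assembly pair, Psmg3 and Psmg4, had log2 fold changes of -0.080 and -0.24. A difference between Psmg1 and Psmg2 in response was not tested.

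The symbols that are no subunit of their own showed no call either. Psmc3ip had 1345, 1583 and 1037 scaled counts in KO and 1204, 1176 and 1333 in fl/fl. The KO libraries spanned the fl/fl range (log2 fold change 0.076, SE 0.19, adjusted p = 0.856). Psme2b had 326, 266 and 371 in KO and 334, 294 and 266 in fl/fl. Its groups overlapped (log2 fold change 0.10, SE 0.22, adjusted p = 0.832), and its transcript was 99.4% identical to that of Psme2 over 794 aligned bases, so reads could be split between these genes.

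**Figure D3:**
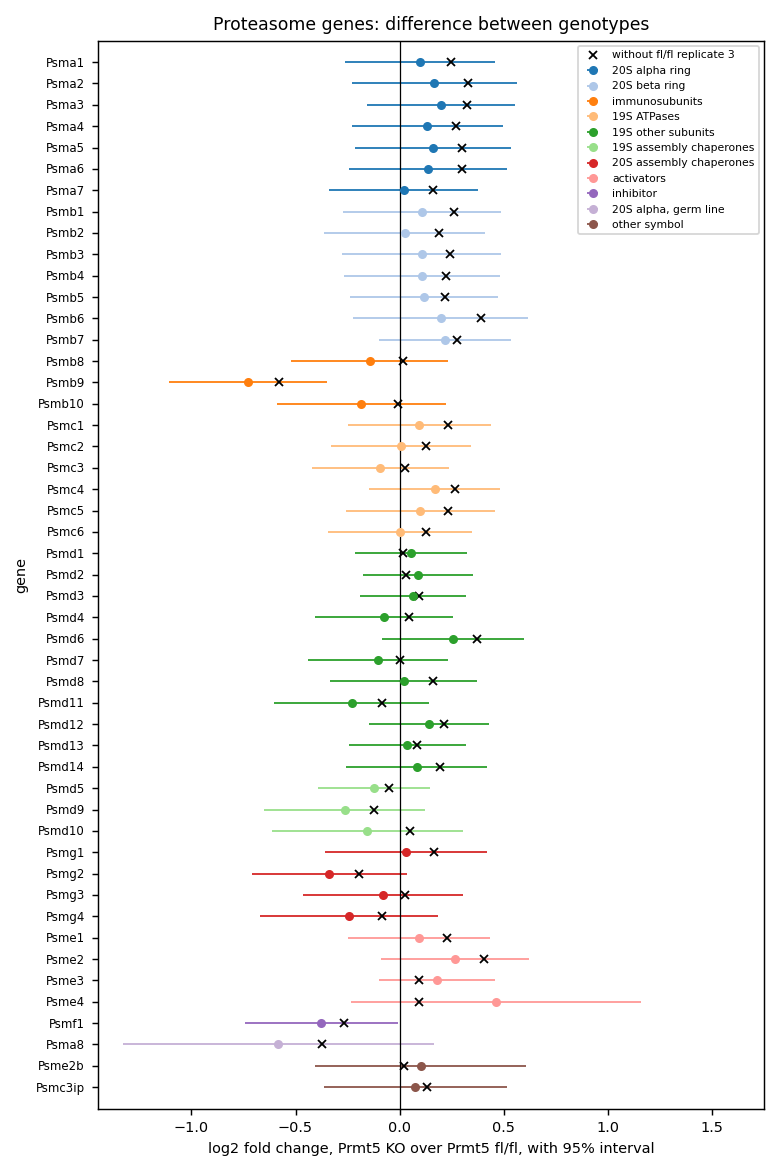
Log2 fold change of each of the 49 proteasome genes, Prmt5 KO over Prmt5 fl/fl, with its 95% interval from limma (points and bars, coloured by role) and the same difference without fl/fl replicate 3 (crosses). The intervals of Psmb9 and Psmf1 exclude 0, the points of the 20S core lie between 0.019 and 0.22, and most crosses lie right of their points.

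The weight of fl/fl replicate 3 was visible in nearly all of these genes. Its value was above both other fl/fl libraries in 44 of 49 genes and below both in 5, with a median log2 difference of 0.40 from their mean. Among the 41 genes shorter than 2000 bases it was above in 40 (median 0.40), and among the 8 longer genes it was above in 4 and below in 4 (median -0.011). Across the 49 genes this difference and gene length had a Spearman correlation of -0.37, and a Pearson correlation of -0.62 with log length, beside a Spearman correlation of -0.57 across all genes tested. These points come from the same libraries and are a description. Psme4, Psme3, Psmd2 and Psmd1, all over 2000 bases, were among the genes below 0, while the long Psmf1 and Psmd9 were above it.

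**Figure D4:**
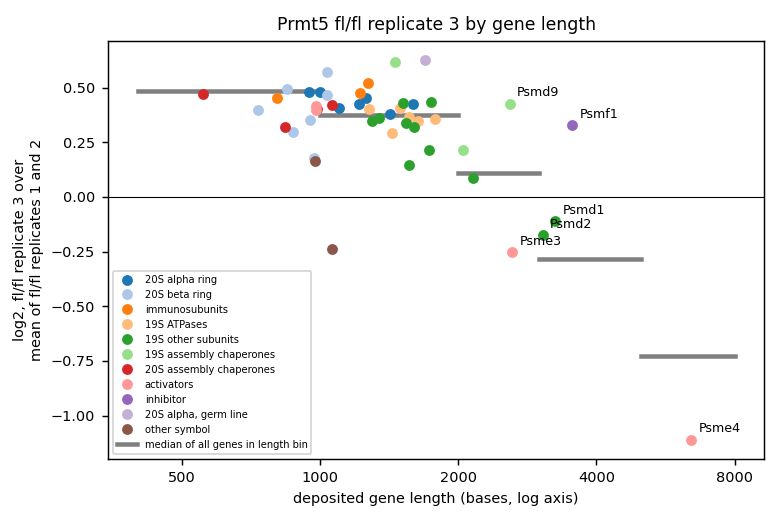
Difference between fl/fl replicate 3 and the mean of fl/fl replicates 1 and 2 (log2 scale) against deposited gene length in bases on a log axis, for the 49 proteasome genes coloured by role; grey bars are medians of all genes tested in 5 length bins. Short proteasome genes lie near the grey bars at 0.49 and 0.37, and Psme4 lies at -1.11.

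Without fl/fl replicate 3, every KO library was above both other fl/fl libraries in 21 of 49 genes (14.8% of all genes), of which 11 belonged to the 14 core genes. The median log2 fold change of the core was then 0.26, and 14 proteasome genes had an unadjusted p under 0.05 with a higher level in KO (7.50% of all genes), although limma called 0 of them after adjustment. These were 9 core genes (Psma1 to Psma6, Psmb1, Psmb6 and Psmb7) together with Psmc1, Psmc4, Psmd6, Psme1 and Psme2. In a further fit, chosen after seeing the data, each library's own trend over gene length was removed before testing. It called 5 proteasome genes higher in KO (1.64% of all genes) and 1 lower (1.69% of all genes). The 5 were Psma3 (log2 fold change 0.41, adjusted p = 0.0487), Psmb6 (0.39, adjusted p = 0.0437), Psmc4 (0.38, adjusted p = 0.0479), Psmd6 (0.47, adjusted p = 0.0437) and Psme2 (0.45, adjusted p = 0.0342), and the lower gene was Psmb9 (-0.58, adjusted p = 0.0361). The 5 calls rest on that correction, and the genes share the same library deviations, so they are not independent of each other.

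The same split appeared by replicate number. KO was above fl/fl in 43 of 49 genes within replicate 1, in 36 within replicate 2 and in 4 within replicate 3, with median log2 differences of 0.26, 0.16 and -0.32. Over all 14113 genes KO was higher in 5574, 6074 and 6406 genes within replicates 1, 2 and 3, with medians of -0.095, -0.055 and -0.10. All 14 core genes were higher in KO in replicates 1 and 2 (medians 0.40 and 0.28), and all 14 were lower in KO in replicate 3 (median -0.31). Psmb9 was below in all 3 replicates, with log2 differences of -0.43, -0.65 and -1.11. Psmf1 was also below in all 3 (-0.19, -0.15 and -0.78), and Psme3 was above in all 3 (0.17, 0.076 and 0.28).

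**Figure D5:**
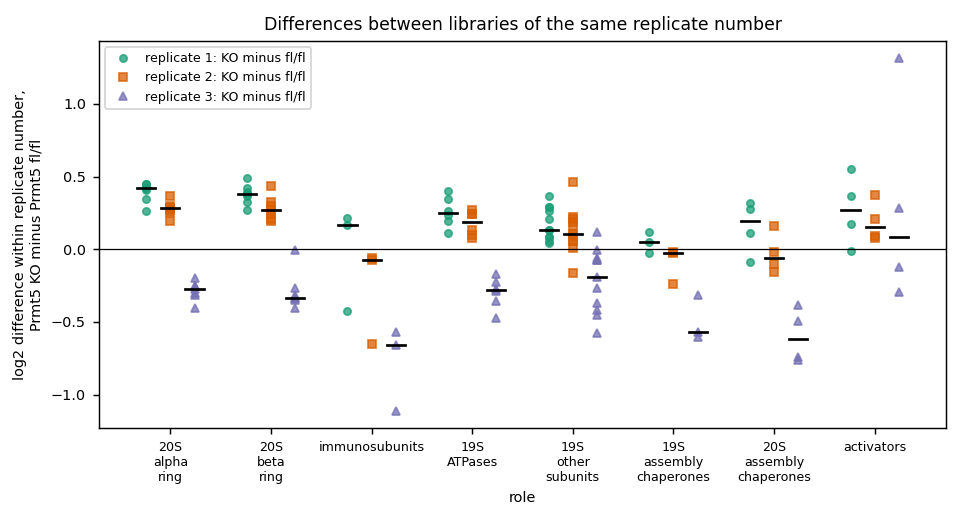
Log2 difference between the KO and the fl/fl library of the same replicate number, by role; each symbol is 1 gene, colours and shapes mark replicates 1 to 3, and black lines are medians. Alpha and beta genes lie above 0 in replicates 1 and 2 and below 0 in replicate 3, and the lowest immunosubunit in each replicate is Psmb9.

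Of the 44 genes around the proteasome that were tested, limma called 0, beside 0.730% of all genes tested. Among 18 bound and shuttle proteins, 15 had fold changes above 0, beside 6321 of the 14113 genes tested. Their median log2 fold change was 0.14, and 0.081 without fl/fl replicate 3, beside -0.048 and -0.076 over all genes tested. Of these 18, 1 had an unadjusted p under 0.05 with a higher level in KO (4.58% of all genes) and 1 with a lower level (13.6% of all genes). The smallest p belonged to Zfand5, an activator of the 26S proteasome in muscle, with 8894, 9095 and 9697 scaled counts in KO and 10648, 11907 and 12994 in fl/fl. Its groups stood apart with KO lower, as for 19.9% of all genes tested (log2 fold change -0.36, SE 0.12, adjusted p = 0.181). Pomp, which matures the core, had a log2 fold change of 0.071 and the ubiquitin receptor Adrm1 of 0.11. Among 9 genes that control proteasome transcription, 6 had fold changes below 0, as did 7792 of the 14113 genes tested, and 3 had an unadjusted p under 0.05, all lower in KO (13.6% of all genes). Bach1, a repressor at antioxidant response elements, had 516, 380 and 482 in KO and 670, 667 and 822 in fl/fl. Its groups stood apart (log2 fold change -0.65, SE 0.20, adjusted p = 0.150). Nfe2l1, which encodes the factor NRF1 that restores proteasome genes when the proteasome is inhibited, had a log2 fold change of 0.20 with all libraries and -0.12 without fl/fl replicate 3.

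Among 6 genes of ubiquitin and its activation, Ubb, a polyubiquitin gene, had the smallest p, with 21800, 20863 and 21437 scaled counts in KO and 21349, 21262 and 37949 in fl/fl. The difference lay in fl/fl replicate 3 (log2 fold change -0.27, SE 0.22, adjusted p = 0.550, and 0.0039 without that library). In the list of antigen processing and the interferon response, 8 of 11 genes had fold changes below 0 (7792 of all 14113) and 4 had an unadjusted p under 0.05, all lower in KO (13.6% of all genes): the class I genes H2-K1 and H2-D1, their partner B2m, and Tap1. H2-K1 had 79929, 78443 and 72905 in KO and 107131, 127378 and 151586 in fl/fl. Its groups stood apart with KO lower, as those of Psmb9 and of 19.9% of all genes did (log2 fold change -0.73, SE 0.14, adjusted p = 0.0676). Without fl/fl replicate 3, H2-K1 (log2 fold change -0.60, adjusted p = 0.0457) and H2-D1 (-0.65, adjusted p = 0.0289) were called lower in KO. The interferon regulatory factor gene Irf1 had a log2 fold change of -0.017. Markers of dendritic cells, which use immunosubunits, were present (4 of 4) and summed to 3988 to 7031 in KO and 3572 to 6593 in fl/fl, and T and NK cell markers (3 of the 4 listed were matched) to 3969 to 4973 in KO and 4457 to 7027 in fl/fl. Nearly all of the T and NK cell sum was Nkg7, while Cd3e had 154 scaled counts in KO replicate 3 and Cd3g had 124, against at most 20.3 in any other library. All 4 megakaryocyte markers and the 3 red cell precursor markers tested had fold changes below 0, as Psmb9 did. The groups stood apart with KO lower for 2 markers in each list (19.9% of all genes). Within replicate 1, Pf4 and Gp9 were higher in KO, and within replicate 3 Slc4a1 was. Limma called Itga2b (log2 fold change -1.95, adjusted p = 0.0195) and Klf1 (-2.11, adjusted p = 0.0476) lower in KO. Both calls were lost with the replicate block (adjusted p = 0.103 and 0.161). The part of these cells in the values of Psmb9 and of the class I genes was not tested.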

How the data were processed

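Per the labels' protocols, cDNA of the sorted cells was made and amplified with SMART-Seq v4 and turned into Nextera XT libraries, which mark no strand. STAR, featureCounts and build mm10 are named in the submitters' processing notes, without versions, annotation or the handling of reads that hit several genes. In the 1 table that the authors deposited, the column of fl/fl replicate 2 holds read counts, and the other 5 deposited columns hold a scaled signal, the counts brought to that library's total (44704636). Undoing the factor gave whole reads for 100% of values (tolerance 1e-06). Columns were assigned to samples by their titles.

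Libraries were grouped by the genotype in the labels. Genes with a mean of at least 10 were tested as log2(value + 1), which understates changes of low genes, with limma's moderated test (mean-variance trend, two-sided, Benjamini-Hochberg over 14113 genes, threshold 0.05). On recovered reads, edgeR called 34 genes higher and 26 lower, and DESeq2 365 and 616. The fits were also run on simulated data, and the outcome is not reported here. Versions were R 4.3.3, limma 3.58.1, edgeR 4.0.16, DESeq2 1.42.0, Python 3.11.15 and matplotlib 3.10.9. The proteasome genes, the lists around them and the rule for named genes were chosen with earlier results of these data known. Values in every library are given for genes past the threshold, the catalytic pairs, Psme1 to Psme4, Psmf1, in each other role the genes with the largest and smallest fold change and the smallest p, and in each list around the proteasome the gene with the smallest p. Other genes with such values (Prmt5, Psmb11, Tap1) were added after their values were seen. Of the 22 symbols listed as bound and shuttle proteins, 18 were matched.

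A library shares its number and a title prefix with 1 library of the other genotype, and litters were matched, so a fit with the number as a block was run as an alternative. The limma fit reported and the permutation tests have no block. What the prefix means is not stated. Deviations from group means correlated across genes by -0.14, 0.067 and -0.26 within replicates 1, 2 and 3. Chi-square tests of the reads found no library to be a copy of another. Alternatives were other scalings, tools, pseudocounts (0.5 and 8), filters, the block, each library left out and genes with overlapping exons left out. The length correction and edgeR without fl/fl replicate 3 were chosen after seeing the data. Some genes of the lists are not reported here.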

Additional observations from a re-analysis of the deposited data

How the results depend on the processing

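Over all genes, limma's counts of 39 higher and 64 lower in KO became 22 lower with median-of-ratios scaling, 26 lower with quantile scaling or with edgeR, 38 lower without a filter, 365 higher and 616 lower with DESeq2, 1 higher and 0 lower with the replicate block, 231 higher and 239 lower with the length trend removed, and 93 higher and 103 lower with edgeR without fl/fl replicate 3. Leaving out 1 library gave 1 to 120 higher and 2 to 257 lower, with the highest counts without fl/fl replicate 3. Of the proteasome genes, 0 were called higher except 5 with the length trend removed, and 0 lower except 1 (Psmb9) with DESeq2, without fl/fl replicate 3 and with the length trend removed; edgeR without that library gave Psmb9 an adjusted p of 0.0563, and leaving out a library gave 0 to 1. The replicate block called 0 proteasome genes, as the limma fit without it did, so there was no call that it could change. Of the genes around the proteasome, 2 were called lower (H2-D1 and H2-K1) with quantile scaling, with DESeq2 and without fl/fl replicate 3 (0 to 2 over the libraries left out), and with the length trend removed 3 were called lower (with B2m) and 1 higher (Uchl5). The median log2 fold change of the proteasome genes, 0.076, moved between 0.0045 and 0.24. These moves were smaller than 0.172, the pooled SD within groups of the median log2 value of single libraries. That SD includes fl/fl replicate 3 and is not the error of a group difference, so it does not show the median to be stable. Leaving out the genes with overlapping GENCODE exons gave 0.084. The ratio differences kept their sign without any 1 library (Psmb8/Psmb5 -0.33 to -0.20, Psmb9/Psmb6 -0.98 to -0.84, Psmb10/Psmb7 -0.56 to -0.29).

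Of 493 alternative values for 29 named genes, 458 kept sign and side of the threshold, 12 passed it and 23 in 10 genes changed sign, none with an adjusted p below 0.345. With the length trend removed these were Psmb8 (0.064), Psmb10 (0.027), Psmc3 (0.12) and Psmd5 (0.058), and with edgeR without fl/fl replicate 3 Psmb8 (0.090), Psmb10 (0.066), Psmc3 (0.10), Psmd5 (0.026) and Ubb (0.081). Leaving out each library gave log2 fold changes of -0.27 to 0.015 for Psmb8, -0.068 to 0.16 for Psma7, -0.084 to 0.19 for Psmb2, -0.16 to 0.023 for Psmc3, -0.0097 to 0.23 for Psme2b, -0.065 to 0.24 for Psmc3ip, -0.075 to 0.16 for Psmg1 and -0.41 to 0.0039 for Ubb. The cause was not tested. Depth limits Psmb11, with at most 2 reads in any library.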

Other observations

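Further genes around the proteasome, chosen after their values were seen, had groups that stood apart without passing the threshold over all genes. Over all genes tested, the KO values all lay above the fl/fl values for 8.30% and all below for 19.9%. Among the 18 bound and shuttle proteins, 2 stood apart with KO higher and 2 with KO lower. Among the 9 genes that control proteasome transcription, 0 stood apart with KO higher and 3 with KO lower. Rad23b, a shuttle factor that carries ubiquitinated proteins to the proteasome, had 4953, 4982 and 4481 scaled counts in KO and 3988, 3844 and 2278 in fl/fl (log2 fold change 0.55, SE 0.22, limma adjusted p = 0.249). Every KO library was above every fl/fl library, and the log2 fold change was 0.29 without fl/fl replicate 3.

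Ngly1, which encodes the glycanase that processes NRF1, had 3897, 4415 and 4053 scaled counts in KO and 4957, 4966 and 5781 in fl/fl (log2 fold change -0.34, SE 0.13, adjusted p = 0.212). Mafk, a small Maf partner of the NRF factors, had 2134, 2135 and 2502 in KO and 2714, 3526 and 2659 in fl/fl (-0.39, SE 0.16, adjusted p = 0.260). In both genes every KO library was below every fl/fl library, as for Bach1.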
